A study of Mus musculus with 4 samples.

Results

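The transcription factors that define heart muscle, together with the coactivator myocardin, were followed in hearts that lack c-Jun in striated muscle. The 10 genes are *Gata4*, *Mef2a*, *Mef2c*, *Mef2d*, *Nkx2-5*, *Tbx5*, *Tbx20*, *Hand2*, *Srf* and *Myocd*. They were taken by name, and every probe set whose annotation gives only that gene symbol was used. This gave 29 of 45037 probe sets and 10 of 18193 named genes, with 6 probe sets for *Mef2a*, 5 for *Mef2c*, 3 each for *Mef2d*, *Tbx20* and *Hand2*, 2 each for *Gata4*, *Tbx5*, *Srf* and *Myocd* and 1 for *Nkx2-5*. Total RNA came from the hearts of 2 Jun delta mu and 2 Jun f/f mice aged 10 weeks, each hybridized to 1 Affymetrix GeneChip mouse expression array. All animals carried floxed *Jun* alleles and were of mixed strain, 129/Ola-C57BL/6. Jun delta mu mice also carried Cre recombinase driven by the muscle creatine kinase promoter, which is active in heart and skeletal muscle, whereas the study describes Jun f/f controls as Cre-negative. Cells of the heart other than striated muscle therefore keep *Jun* in both genotypes. The sample records also hold notes on plated cells of digested ventricles, which do not match the titles and the methods, and the arrays were read as hearts.

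GATA4, NKX2-5, TBX5 and TBX20 bind the control regions of heart muscle genes together and build the cardiac gene program in the embryo, and they stay expressed in the adult heart. HAND2, a basic helix-loop-helix factor, is needed for growth of the right ventricle in the mouse embryo. MEF2 proteins and SRF share the MADS-type DNA-binding domain and switch on genes of contraction. MEF2 is held in check by class II histone deacetylases, and SRF works at CArG boxes with myocardin, which does not bind DNA by itself. The comparison asks whether these identity factors held their level in Jun delta mu hearts, in which genes of the sarcomere differed.

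The regulators are tied to each other through short DNA motifs, and stretches before their transcription starts are shown because they hold such motifs. RefSeq windows of 300 bases, from 250 before to 50 after an annotated start on GRCm38.p6, were at hand for 7 of the 10 genes, as 9 windows with 3 for *Mef2c*. Both strands were searched for the CArG box, the MEF2 site, the AP-1 site TGANTCA, the GATA site (AGATAA, its form that ends in G, and the same pair with T as the first base), the NKX2-5 site CACTTNA, the T-box site GGTGTGA and the E-box CANNTG. The *Srf* window held 2 CArG boxes, at positions -82 to -73 and -62 to -53 from the start, and 1.63% of all 32851 windows held any. *Actc1*, cardiac α-actin and an SRF target, held 1 CArG box. The *Mef2a* window held a MEF2 site that spans the start, and the *Jun* window held another at -33 to -24, against 0.557% of all windows. The third *Mef2c* window held the only AP-1 match among the 9 windows, with 7.81% of all windows matching. *Hand2* held 2 GATA sites, against 29.8% of all windows with any. E-boxes were in 4 of the 9 windows, against 72.3% of all windows. No window of the 7 genes held an NKX2-5 or a T-box match, where 11.5% and 3.98% of all windows did. No match overlapped another. A match is a string of letters and says nothing of binding. The stretches below lie at chr17:46556163-46556282 (*Srf*, minus strand), chr2:114052876-114052995 (*Actc1*, minus), chr4:95052223-95052342 (*Jun*, minus), chr7:67372849-67372968 (*Mef2a*, minus), chr13:83573407-83573606 (*Mef2c*, plus) and chr8:57320733-57320882 (*Hand2*, plus). They run 5′ to 3′ along the gene, and capitals mark CArG boxes in *Srf* and *Actc1*, the MEF2 site in *Jun* and *Mef2a*, the AP-1 match in *Mef2c* and the GATA sites in *Hand2*, of which the second reads on the opposite strand.
Srf: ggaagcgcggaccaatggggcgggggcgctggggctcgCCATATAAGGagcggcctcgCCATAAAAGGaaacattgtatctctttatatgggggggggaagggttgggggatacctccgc
Actc1: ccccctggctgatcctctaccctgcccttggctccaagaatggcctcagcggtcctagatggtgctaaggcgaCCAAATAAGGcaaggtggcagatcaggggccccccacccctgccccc
Jun: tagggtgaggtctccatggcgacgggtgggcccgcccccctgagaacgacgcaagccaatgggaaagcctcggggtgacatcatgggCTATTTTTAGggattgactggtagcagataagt
Mef2a: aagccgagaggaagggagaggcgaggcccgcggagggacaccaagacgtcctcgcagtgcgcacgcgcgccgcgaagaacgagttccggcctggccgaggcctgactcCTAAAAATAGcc
Mef2c: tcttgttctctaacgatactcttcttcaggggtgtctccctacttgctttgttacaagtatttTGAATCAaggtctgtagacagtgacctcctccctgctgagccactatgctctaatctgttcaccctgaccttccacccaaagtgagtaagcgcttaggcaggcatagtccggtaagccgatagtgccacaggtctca
Hand2: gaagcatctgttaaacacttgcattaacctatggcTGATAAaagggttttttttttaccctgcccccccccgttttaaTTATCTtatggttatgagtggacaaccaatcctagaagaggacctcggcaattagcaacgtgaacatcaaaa

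**Figure D1:**
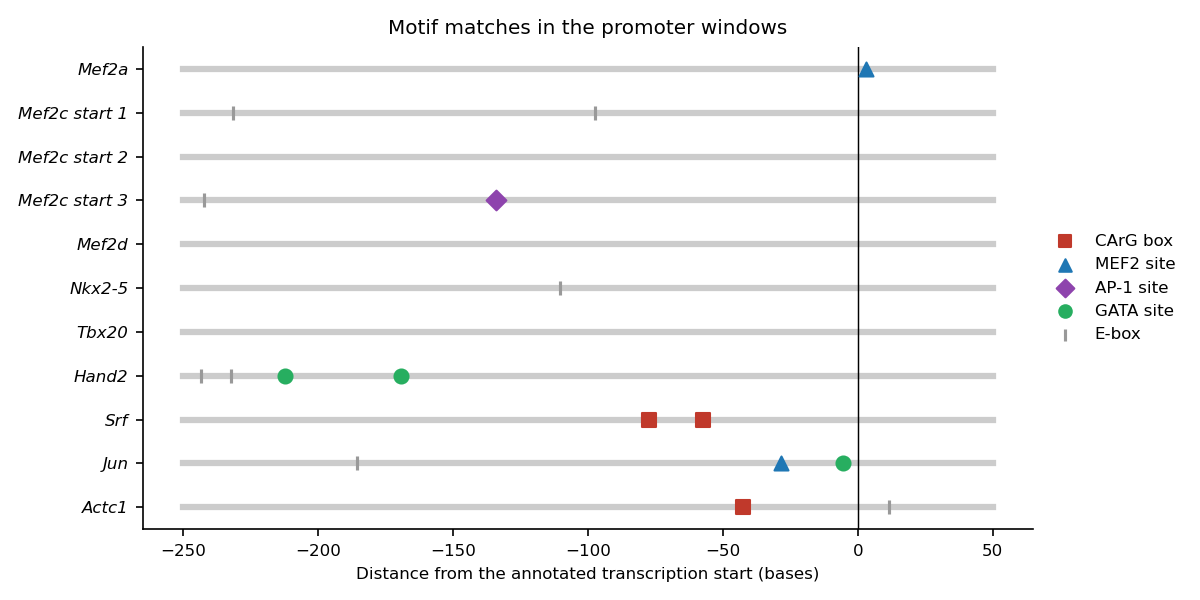
Motif matches in the RefSeq promoter windows of 7 of the 10 genes and of Jun and Actc1, drawn against the distance from the annotated transcription start in bases. Grey bars are the windows and symbols the matches, with 2 CArG boxes before Srf, a MEF2 site in each of Mef2a and Jun, 1 AP-1 match before the third Mef2c start and 2 GATA sites before Hand2.

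The targeted gene was lower in Jun delta mu hearts. The signal of *Jun*, by its brighter probe set, was 7.02 and 7.14 on the log2 scale in Jun delta mu hearts, against 8.30 and 9.00 in Jun f/f hearts. Both of its 2 probe sets passed the study's threshold as lower, with the mean of Jun delta mu hearts at 33.8% and 42.3% of that of Jun f/f hearts. This threshold, here applied to a limma fit of all probe sets, asks for a genotype difference above 1.3-fold together with p below 0.05 before adjustment. The study also selected some genes by a second route, a difference found again by quantitative RT-PCR, which is not applied here. *Myh6*, the main myosin heavy chain of adult mouse heart, was at 14.69 and 14.67 in Jun delta mu and at 14.72 and 14.70 in Jun f/f hearts, and of 7 heart muscle markers none passed. In whole hearts, fewer cells of a type and less RNA per cell cannot be told apart. The array of Jun f/f replicate 1 was the least like the rest, with correlations of 0.994 to 0.995 against 0.997 for the closest pair. On it 104 probe sets lay over 2-fold away from what the remaining arrays averaged, against 24 to 33 on each of those. Jun delta mu replicate 2 held the atrial muscle genes *Sln*, *Myl7* and *Myl4* at 8.11, 9.11 and 9.02, whereas Jun delta mu replicate 1 had them at 4.10, 5.02 and 6.03.

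Most of the cardiac identity factors differed little between genotypes. Of the 29 probe sets, 26 differed by less than 1.3-fold, against 97.7% of all probe sets, and the 3 others were those of *Hand2*. Only 1 passed the threshold, as higher in Jun delta mu hearts, and none passed as lower, where 0.568% of all probe sets passed as higher and 0.959% as lower, or 1.53% together. The median difference of Jun delta mu minus Jun f/f was -0.05 over the 29 probe sets and 0.04 over the brightest probe set of each gene, beside 0.00075 over all probe sets. The median absolute difference was 0.11, against 0.086 over all probe sets. No probe set of any gene reached an adjusted p under 0.05 with limma, while 2326 of all probe sets and 2 of the 29 had an unadjusted p under 0.05. The methods' t-test also left 0 probe sets after adjustment, with 2394 of all and 1 of the 29 at an unadjusted p under 0.05. In 16 of the 29 probe sets the 2 genotypes did not overlap, 5 with Jun delta mu hearts higher and 11 with them lower, against 33.9% of all probe sets. The 95% intervals of the limma fit, which draw on the spread of all probe sets, show how far the level held in that fit. They lay inside a 2-fold change in either direction for 28 of the 29 probe sets, against 99% of all probe sets, and inside a 1.3-fold change for 12 of 29, against 53.5%. All 3 probe sets of *Mef2d* and both of *Srf* were among the 12, with 3 of 6 for *Mef2a*, 2 of 3 for *Tbx20* and 1 each for *Mef2c* and *Tbx5*. For *Gata4*, *Nkx2-5*, *Myocd* and *Hand2* no interval was that narrow.

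**Figure D2:**
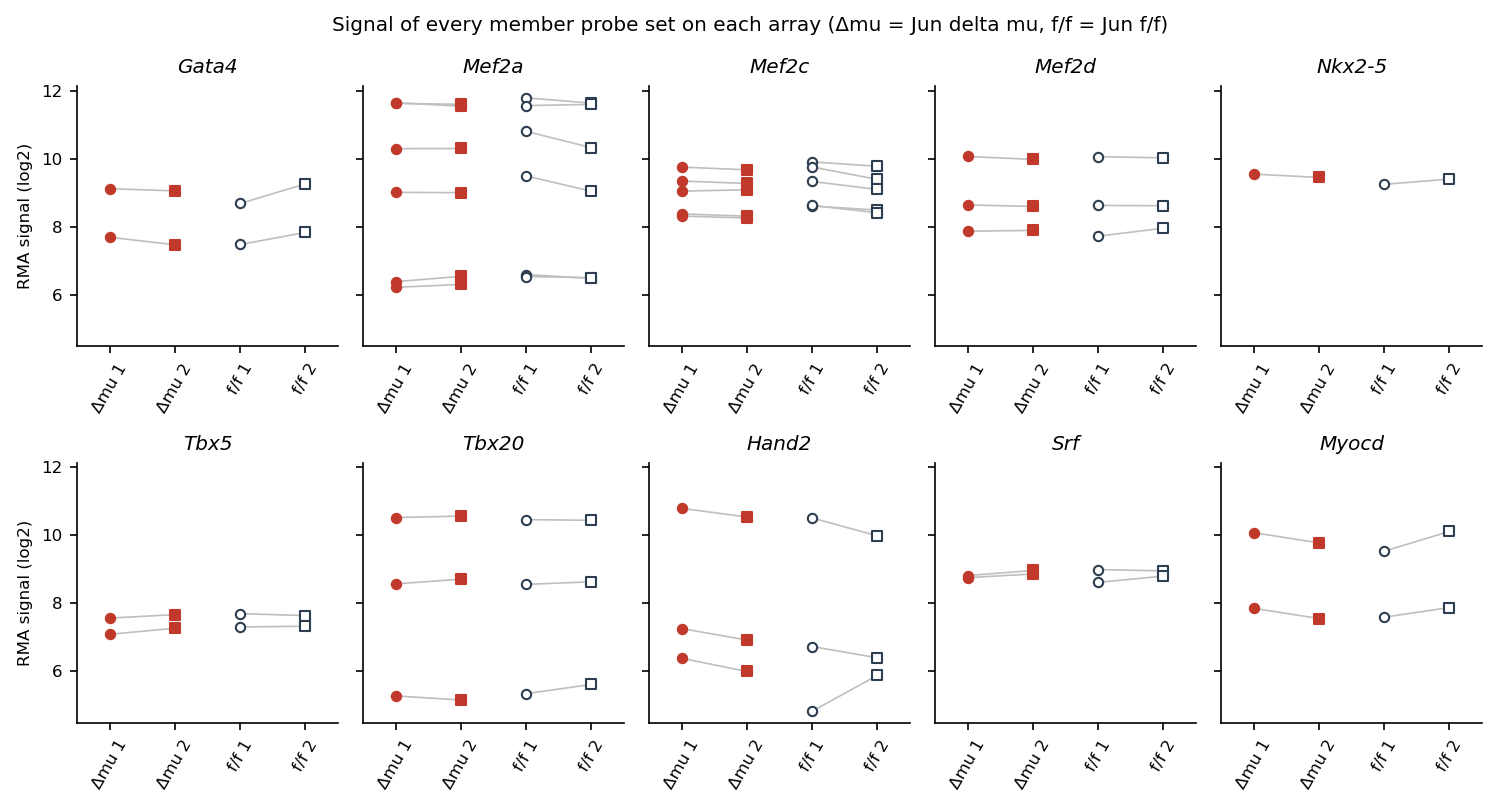
RMA signal (log2) of each of the 29 probe sets on each array, in a panel per gene. Filled red symbols are Jun delta mu hearts and open symbols Jun f/f hearts, circles stand for replicate 1 and squares for replicate 2, and grey lines join the 2 arrays of a genotype. Both Jun delta mu hearts lie above both Jun f/f hearts for each Hand2 probe set and below them for each Mef2c probe set.

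*Hand2* was the 1 gene of the 10 with a probe set past the threshold. Probe set 1422221_at stood at 7.26 and 6.92 in Jun delta mu hearts, against 6.73 and 6.40 in Jun f/f hearts. The groups did not overlap, and the mean was 7.09 ± 0.24 in Jun delta mu and 6.57 ± 0.23 in Jun f/f hearts (SD, n = 2 each). The difference was 0.52 (standard error 0.17, 95% interval 0.11 to 0.94), or 1.44-fold (limma, unadjusted p = 0.0224, adjusted p = 0.896). The brightest probe set, 1436041_at, stood at 10.79 and 10.54 in Jun delta mu hearts, against 10.51 and 9.98 in Jun f/f hearts. Here the lower Jun delta mu heart and the higher Jun f/f heart were nearly level. The difference was 0.42 (95% interval -0.07 to 0.91), or 1.34-fold, and did not pass the threshold (limma, unadjusted p = 0.0816). The dimmest, 1443854_at, was at 6.38 and 6.00 in Jun delta mu and at 4.83 and 5.89 in Jun f/f hearts, a difference of 0.83 (95% interval -0.05 to 1.71) that did not pass either. All 3 probe sets were thus higher in both Jun delta mu hearts than in both Jun f/f hearts, against 17.3% of all probe sets that were higher without overlap, but they report on the same gene in the same 4 hearts. The order of the *Hand2* signals was Jun delta mu replicate 1 first and replicate 2 second in each.

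The size of the *Hand2* difference moved with the array left out. Such a fit leaves 1 genotype with a single array, which is assumed to vary like the 2 arrays of the other genotype, so its calls are weaker evidence than those on all 4 arrays. With Jun delta mu replicate 1 or Jun f/f replicate 2 left out it was 0.36 for 1422221_at and below the threshold, and the methods' t-test on all arrays gave no call for it. On leaving out Jun f/f replicate 1, the array least like the rest, it was 0.69 for 1422221_at and 0.68 for 1436041_at, both past the threshold, and 0.31 for 1443854_at. Without Jun f/f replicate 2, 1436041_at was at 0.15 and 1443854_at at 1.36. It stayed above 0 in each case. Without Jun delta mu replicate 2, where *Sln*, *Myl7* and *Myl4* were high, the 3 probe sets differed by 0.69, 0.54 and 1.02. Of 10 fibroblast markers, *Postn*, which encodes the matrix protein periostin, alone passed, as higher by 1.15. In 5 of the 10, *Postn* among them, both Jun delta mu hearts were higher than both Jun f/f hearts, against 17.3% of all probe sets. The genes named next were named after their values were seen. Of these 5, *Lum* and *Dpt* differed by 0.32 and 0.31, below 1.3-fold. Another 3 of the 10 were below 0, *Pdgfra* at -0.09, *Dcn* at -0.02 and *Gsn* at -0.01. *Col1a2* and *Col3a1* differed by 0.0032 and 0.04. The summed linear signal of the 10 fibroblast markers was 30740 and 34000 in Jun delta mu and 32330 and 29950 in Jun f/f hearts. The part of fibroblast content in the *Hand2* values was not tested. *Hand1*, the closest relative of *Hand2*, was dim at 5.74 and 5.63 in Jun delta mu and 5.30 and 5.51 in Jun f/f hearts, and differed by 0.28 without passing the threshold.

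*Gata4*, *Nkx2-5*, *Tbx5* and *Tbx20* gave no call. *Gata4*, a zinc finger factor, was at 9.12 and 9.06 in Jun delta mu hearts, against 8.69 and 9.26 in Jun f/f hearts, by its brighter probe set. The Jun f/f hearts lay on either side of the Jun delta mu hearts, and the difference was 0.11 (95% interval -0.37 to 0.60). Leaving out Jun f/f replicate 1 gave -0.17, and leaving out the other control heart gave 0.40, past the threshold. The other probe set was at 7.69 and 7.47 in Jun delta mu and at 7.48 and 7.84 in Jun f/f hearts, again with overlap. *Nkx2-5*, a homeodomain factor, was at 9.55 and 9.45 in Jun delta mu hearts, against 9.25 and 9.40 in Jun f/f hearts. The groups did not overlap, by a margin smaller than the gap within either genotype. The difference was 0.17 (95% interval -0.08 to 0.43).

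The T-box factors were close to level. *Tbx5* was at 7.57 and 7.67 in Jun delta mu hearts, against 7.70 and 7.64 in Jun f/f hearts, a difference of -0.05 (95% interval -0.28 to 0.18). Its dimmer probe set differed by -0.14, with 7.09 and 7.27 in Jun delta mu and 7.31 and 7.33 in Jun f/f hearts. *Tbx20* was at 10.52 and 10.56 in Jun delta mu hearts, against 10.46 and 10.44 in Jun f/f hearts, by its brightest probe set. These groups did not overlap, but the difference of 0.09 (95% interval -0.12 to 0.31) was far below 1.3-fold. Of its other probe sets, 1425158_at differed by 0.05. The third, 1422219_a_at, was at 5.28 and 5.16 in Jun delta mu and at 5.35 and 5.62 in Jun f/f hearts, a difference of -0.26 that passed the threshold, at -0.40, only with Jun f/f replicate 1 left out. Its signal lay within the range of genes that belong to other tissues, such as the hormone genes *Gcg* and *Prl*. These genes, 18 of 20 listed measured, had mean signals of 3.19 to 6.49, and 26 of the 29 probe sets lay above all of them. The exceptions were 1 probe set each of *Tbx20*, *Hand2* (1443854_at) and *Mef2a* (1425426_a_at). Signals of different probe sets do not compare as amounts of RNA, and this range serves only to mark dim ones.

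**Figure D3:**
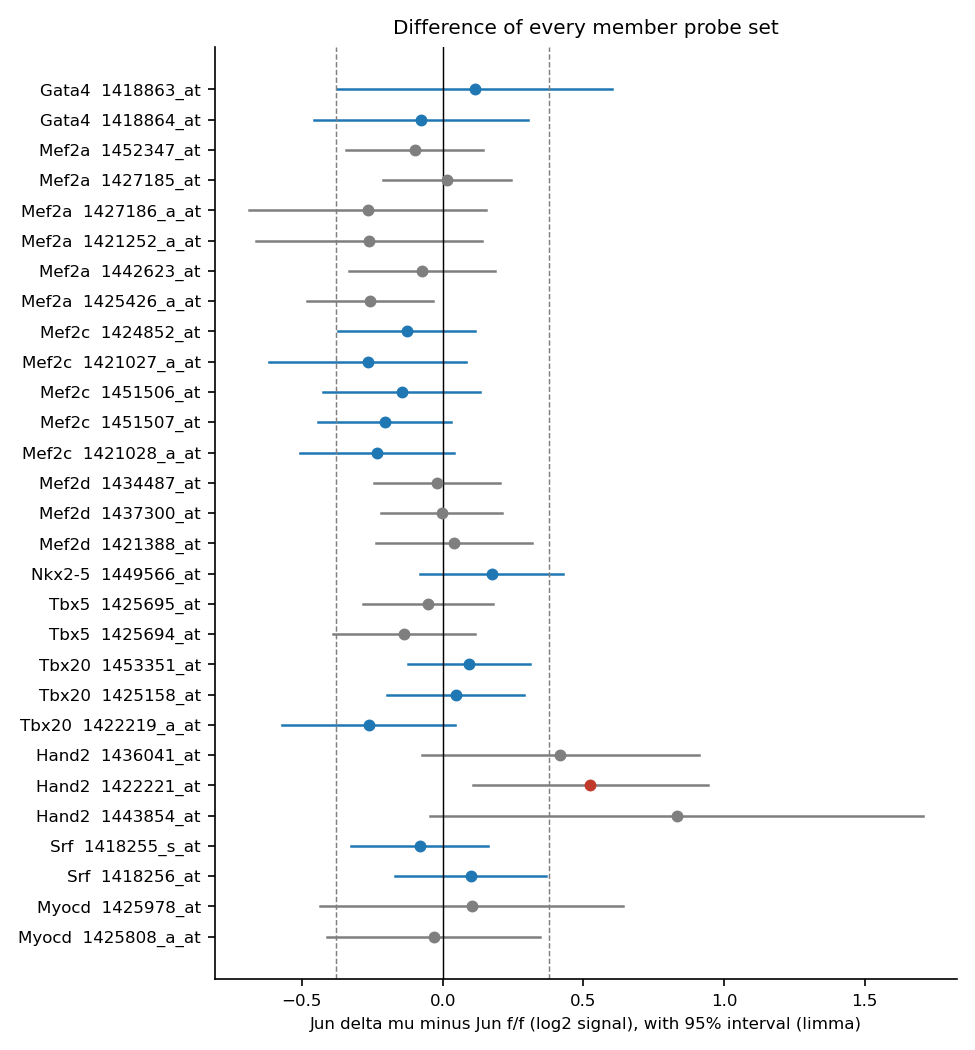
Difference of Jun delta mu minus Jun f/f hearts in log2 signal for the 29 probe sets, with 95% intervals from limma, coloured in alternation by gene. Dashed lines mark a 1.3-fold change and the red point is the Hand2 probe set past the threshold, at 0.52. The other 28 points did not pass, and 28 of the 29 intervals lie inside a 2-fold change.

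Among the MEF2 genes, *Mef2c* stood lower in both Jun delta mu hearts by every probe set. *Mef2c*, which the second heart field needs in the embryo, was at 9.76 and 9.68 in Jun delta mu hearts, against 9.91 and 9.78 in Jun f/f hearts, by its brightest probe set. Probe set 1421027_a_at was at 9.34 and 9.27 in Jun delta mu hearts, against 9.76 and 9.40 in Jun f/f hearts. Jun f/f replicate 1 was the highest array for each of the 5 probe sets. The 5 differences ran between -0.27 and -0.13, and none passed the threshold or reached 1.3-fold. The widest of the 5 intervals, that of 1421027_a_at, ran between -0.62 and 0.08 and thus reached past 1.3-fold on the lower side. No overlap in the lower direction was found for 16.7% of all probe sets, and the 5 probe sets again report on the same gene in the same hearts. Without Jun f/f replicate 1 the 5 differences lay between -0.15 and -0.03. Without Jun f/f replicate 2, 1421027_a_at was at -0.45 and past the threshold.

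*Mef2a* depended on the probe set. Its brightest 2 probe sets, both of the class that matches 1 transcript, differed by -0.10 and 0.02. The brightest was at 11.63 and 11.60 in Jun delta mu hearts, against 11.79 and 11.63 in Jun f/f hearts. The 3 probe sets of the class that matches several transcripts of a gene (_a_at) differed by -0.27, -0.26 and -0.26. In 1421252_a_at, 3 arrays were level, with 9.01 and 9.00 in Jun delta mu hearts and 9.05 in Jun f/f replicate 2, and only Jun f/f replicate 1 was apart at 9.50. Probe set 1427186_a_at behaved likewise, at 10.30 on each Jun delta mu array and at 10.81 and 10.33 on the Jun f/f arrays. Without Jun f/f replicate 1 these 2 differences were -0.04 and -0.03, and without Jun f/f replicate 2 they were -0.49 and -0.51 and past the threshold, in a fit that called 1466 probe sets as higher and 1986 as lower. The third, the dim 1425426_a_at, was at 6.22 and 6.31 in Jun delta mu and 6.54 and 6.51 in Jun f/f hearts, a difference below 1.3-fold (limma on all 4 arrays, unadjusted p = 0.0311, adjusted p = 0.896). Without Jun f/f replicate 1 it was -0.24 (limma, unadjusted p = 0.068). Of all 29 probe sets, the 7 of the _a_at class were below 0 without exception, against 10 of the 21 unique ones, a split noticed after the values were seen and not tested. Most of the 7 belong to *Mef2a* and *Mef2c*, where 5 of 6 and 5 of 5 probe sets of any class were below 0. Class and gene are therefore largely mixed in this split.

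*Mef2d* was the most even of the 3. It was at 10.07 and 9.98 in Jun delta mu hearts, against 10.06 and 10.03 in Jun f/f hearts, by its brightest probe set. The groups overlapped in all 3 probe sets, and the differences were -0.02, -0.0033 and 0.04. The intervals of all 3 excluded a change of 1.3-fold in either direction.

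**Figure D4:**
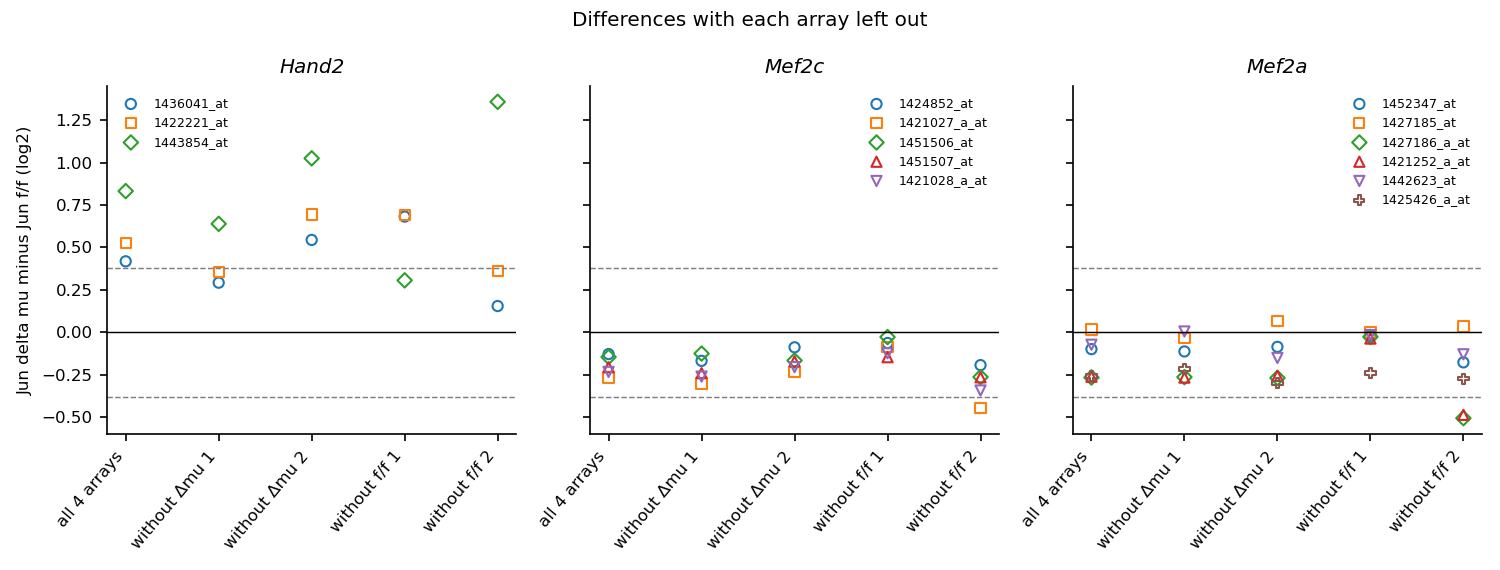
Differences of Jun delta mu minus Jun f/f hearts (log2 signal) for the probe sets of Hand2, Mef2c and Mef2a with all 4 arrays and with each array left out in turn. Dashed lines mark a 1.3-fold change. Hand2 stays above 0 in each case, Mef2c stays below 0 in each case, and the Mef2c points lie between -0.15 and -0.03 without Jun f/f replicate 1.

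*Srf* and *Myocd* gave no call, and the interval was narrow for *Srf* only. *Srf* encodes the factor that is known to bind CArG boxes, and its own window held 2 matches to that motif. It was at 8.82 and 8.97 in Jun delta mu hearts, against 8.99 and 8.95 in Jun f/f hearts, by a probe set of a class (_s_at) that may match more than this gene. The difference was -0.08 (95% interval -0.32 to 0.16), and the other probe set differed by 0.10 (95% interval -0.17 to 0.37). The groups overlapped in both. *Myocd*, which encodes myocardin, was at 10.08 and 9.78 in Jun delta mu hearts, against 9.53 and 10.11 in Jun f/f hearts. The 2 control hearts enclosed the 2 Jun delta mu hearts, and the difference of 0.10 had a wide interval (-0.44 to 0.64). Leaving out Jun f/f replicate 1 gave -0.19, and leaving out the other control heart gave 0.39. The second *Myocd* probe set differed by -0.03, with overlap. The brighter probe set of *Gata4* had the same form, with Jun f/f replicate 1 lowest, Jun f/f replicate 2 highest and both Jun delta mu hearts between them. Jun f/f replicate 1 was the highest or lowest of the 4 arrays in 19 of the 29 probe sets, against 64.1% of all probe sets.

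The wider network of regulators held no called gene. Counted by its brightest probe set, where 1.45% of all genes passed (0.665% higher and 0.786% lower), none of 30 other measured heart transcription factors passed the threshold (median difference 0.01). *Gata6*, the partner of *Gata4*, differed by 0.18, and *Gata5* by 0.05. The 30 differences ran from -0.30 to 0.28. None of 12 SRF cofactors and ternary complex factors passed (median -0.03), with *Mrtfa* at 0.21 and *Mrtfb* at -0.17, which encode relatives of myocardin that respond to free actin. Of the 12, both Jun delta mu hearts were lower than both Jun f/f hearts in 6 and higher in 3, against 16.7% and 17.3% of all probe sets. The lowest, *Csrp1*, named after its values were seen, was at -0.35 (95% interval -0.56 to -0.13, limma, adjusted p = 0.896), below 1.3-fold. None of 17 regulators of MEF2 passed (median -0.02), and the class II deacetylases *Hdac4* and *Hdac5* differed by 0.08 and -0.07. The lowest of the 17, named after their values were seen, were another class II deacetylase, *Hdac9*, at -0.34 (95% interval -0.82 to 0.14) and the kinase p38α (*Mapk14*) at -0.27 (95% interval -0.50 to -0.03), both below 1.3-fold.

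Few of the genes that these factors are known to drive passed the threshold, but most of those of SRF and myocardin were below 0. Of 18 targets of SRF and myocardin, *Cnn1*, a smooth muscle calponin, passed as lower, none passed as higher and 17 did not pass. *Cnn1* was dim, at 4.67 and 5.11 in Jun delta mu hearts, against 5.81 and 5.31 in Jun f/f hearts, a difference of -0.67 (limma, adjusted p = 0.896) that was not past the threshold without Jun delta mu replicate 1 or by the methods' t-test. The median of the list was -0.08, and 16 of the 18 genes were below 0, against 8688 of all 18193 genes by their brightest probe set. In 8 of the 18 both Jun delta mu hearts were lower than both Jun f/f hearts, against 16.7% of all probe sets. In 0 of the 18 both were higher, against 17.3% of all probe sets. Of the 18, 14 differed by less than 1.3-fold, against 97.7% of all probe sets. Others well below 0 that did not pass, chosen after their values were seen, were skeletal α-actin (*Acta1*) at -0.80 and the smooth muscle genes *Tagln* at -0.57, *Myh11* at -0.42 and *Acta2* at -0.34. *Cnn1*, *Tagln*, *Myh11* and *Acta2* are also on the list of 7 smooth muscle markers, of which 6 were below 0, with a summed linear signal of 12920 and 13810 in Jun delta mu and 14200 and 13910 in Jun f/f hearts. The part of smooth muscle content in these values was not tested. None of 13 measured MEF2 targets passed (median 0.02), and creatine kinase (*Ckm*) and its mitochondrial form (*Ckmt2*) both differed by 0.02. Of 12 targets of GATA4, NKX2-5 and TBX5, the sodium-calcium exchanger gene *Slc8a1* passed as higher and 11 did not pass. Among the 11 were the natriuretic peptide genes *Nppa* and *Nppb*, named after their values were seen. The study reports both as higher by quantitative RT-PCR in Jun delta mu hearts without pressure overload. On the arrays, *Nppa* differed by 0.42 (95% interval -0.14 to 0.99), above 1.3-fold, and *Nppb* by -0.27 (95% interval -1.30 to 0.75). The genotypes overlapped in both. *Slc8a1* was at 9.08 and 9.14 in Jun delta mu hearts, against 8.79 and 8.55 in Jun f/f hearts, a difference of 0.44 (95% interval 0.16 to 0.73, limma, adjusted p = 0.896), which was not past the threshold without Jun delta mu replicate 2, with the methods' t-test or by the median of the gene's probe sets.

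**Figure D5:**
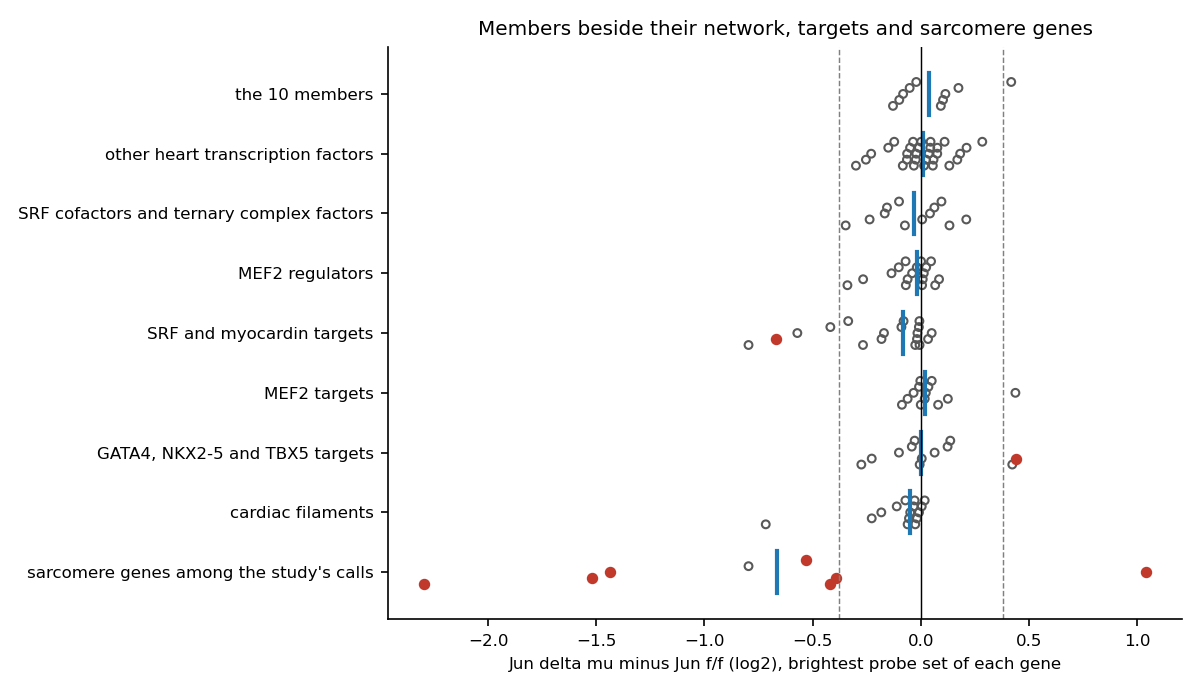
Difference of Jun delta mu minus Jun f/f hearts in log2 signal for each gene of the lists, by its brightest probe set. Each circle is a gene, red filled circles passed the threshold, blue bars are list medians and dashed lines mark a 1.3-fold change. Of the members only Hand2, at 0.42, differs by more than 1.3-fold, and the genes of the regulator lists lie between -0.35 and 0.28. The 8 sarcomere genes among the study's calls have a median of -0.66.

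The differences of the identity factors were mostly small beside those of sarcomere genes the study had called, with size as part of that call. Beside the cardiac filaments they were not: by the brightest probe set, 9 of the 10 factors and 14 of 15 filament genes differed by less than 1.3-fold. None of the 15 genes of the cardiac filaments passed (median -0.05), but 13 of the 15 were below 0. Of all 18193 genes, 8688 were below 0 by their brightest probe set. In 6 of the 15 both Jun delta mu hearts were lower than both Jun f/f hearts, against 16.7% of all probe sets. *Myh6* differed by -0.03, *Actc1* by -0.02 and *Tnnt2*, cardiac troponin T, by 0.02. The furthest from 0 was *Myh7*, the slow myosin heavy chain, at 7.79 and 8.63 in Jun delta mu hearts, against 9.17 and 8.68 in Jun f/f hearts, a difference of -0.72 with a wide interval (-1.49 to 0.06). A further 8 sarcomere and muscle genes were taken from those the study had called deregulated on these same arrays. They are thus not independent evidence of direction or of size. Of the 8, 0 differed by less than 1.3-fold, a limit that was part of the study's call. For *Mybpc2*, *Myot*, *Tpm2* and *Acta1* the study also reports lower levels by quantitative RT-PCR in Jun delta mu hearts without pressure overload. It reports the same for *Myh7*, which is on the list of filament genes. The 8 genes had a median of -0.66, with 6 lower and 1 higher past the threshold. *Myot*, which encodes the Z-disc protein myotilin, was at 8.63 and 8.53 in Jun delta mu hearts, against 10.02 on each Jun f/f array. *Mybpc2*, a fast skeletal myosin binding protein, was at 5.26 and 5.42 in Jun delta mu hearts, against 7.82 and 7.45 in Jun f/f hearts. *Tpm2*, β-tropomyosin, differed by -0.42, as much below 0 as the brightest *Hand2* probe set was above it. The lowest difference among the 29 probe sets was -0.27 and the lowest bound of any of their intervals was -0.69. The intervals of *Myot*, *Mybpc2* and *Casq1*, which encodes the calcium store protein calsequestrin of skeletal muscle, lay wholly below that bound. Those of *Tpm2*, *Pdlim1*, *Nrap* and *Acta1* reached above it, to -0.15, -0.29, -0.16 and 0.08, and *Myl1*, a myosin light chain, was higher by 1.04. The difference between these genes and the factors was not tested, because these sarcomere genes had been called on the same values.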

How the data were processed

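Hearts of 2 Jun delta mu and 2 Jun f/f mice were profiled with 1 array each. Scans were handled in Affymetrix AGCC, and RMA from oligo is named in the submitters' processing notes, with no version. The authors deposited RMA signals, which are log2 values after background correction and normalization between arrays, for 45101 probe sets with 0 missing values and no detection calls. RMA compresses differences of dim probe sets. The 64 AFFX controls were left out, and the other 45037 were fitted without further scaling by lmFit and eBayes of limma 3.58.1, R 4.3.3 (genotype as the only term, two-sided, Benjamini-Hochberg over all of them). The number of arrays limits the precision (2 residual degrees of freedom, beside 3.459 prior degrees of freedom that limma takes from all probe sets). The limma p-values weigh each difference against the spread between hearts of a genotype, pulled towards that of all probe sets. Gene names are those of the platform annotation, with 1 symbol in 34945 cases, several in 932 and no symbol in 9160. A gene in a list is represented by its probe set with the highest mean. All 10 members were described, with *Jun*, fixed sarcomere and atrial genes, and of each list the members past the threshold (up to 4) or else the first 2. Genes outside this rule are marked as named after their values were seen. The members and lists were chosen with earlier results of these data known. Alternatives were the methods' t-test, a replicate block, a trended robust prior, removal of the dimmest 40%, quantile normalization, median centring, log2 of linear means, unique probe sets, medians over probe sets and leaving out each array. The procedure was tested on simulated data. Figures were drawn with matplotlib 3.10.9.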

Additional observations from a re-analysis of the deposited data

How the results depend on the processing

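With 2 arrays per genotype, the values rest on which array is kept. A fit without 1 array assumes that the lone array of its genotype varies like the other genotype. The differences of 18 of the 29 probe sets kept their direction whichever array was left out, and those of the other 11 turned. For these, the lowest and highest values without 1 array were -0.17 and 0.40 (*Gata4*, 1418863_at), -0.25 and 0.10 (*Gata4*, 1418864_at), -0.036 and 0.068 (*Mef2a*, 1427185_at), -0.15 and 0.0047 (*Mef2a*, 1442623_at), -0.065 and 0.023 (*Mef2d*, 1434487_at), -0.026 and 0.019 (*Mef2d*, 1437300_at), -0.075 and 0.16 (*Mef2d*, 1421388_at), -0.10 and 0.00016 (*Tbx5*, 1425695_at), -0.023 and 0.12 (*Tbx20*, 1425158_at), -0.19 and 0.39 (*Myocd*, 1425978_at) and -0.18 and 0.12 (*Myocd*, 1425808_a_at). Quantile normalization turned *Mef2d* (1437300_at) to 0.022 and *Myocd* (1425808_a_at) to 0.010, and *Srf* as the median of its probe sets was at 0.0093. Without 1 array, 0 to 2 of the 29 probe sets passed the threshold as higher and 0 to 3 as lower. Those passing as lower were 1 (*Tbx20*) when Jun f/f replicate 1 was left out and 3 (*Mef2a* and *Mef2c*) when Jun f/f replicate 2 was. The count passing as higher was 0 with the methods' t-test and 2 with a trended robust prior or quantile normalization. The median of the members was -0.018 with quantile normalization and -0.046 to -0.023 without 1 array. For the lists without 1 array, 0 to 2 of the other heart factors, 0 to 1 of the MEF2 regulators, 0 to 4 of the SRF and myocardin targets, 0 to 1 of the MEF2 targets, 0 to 2 of the GATA4, NKX2-5 and TBX5 targets and 0 to 1 of the filament genes passed. The SRF and myocardin targets had 0 past the threshold with the methods' t-test, 3 with a trended robust prior and 2 by the median of probe sets, the GATA4, NKX2-5 and TBX5 targets 0 with the methods' t-test and 0 by that median, and the filament genes 1 with a trended robust prior. Both probe sets of *Jun* stayed past the threshold with the methods' t-test, the block, the trended robust prior, the dim filter, quantile normalization and median centring, and without each array, at -1.92 to -1.22 and -1.43 to -1.05 without 1 array. Over all probe sets the counts, 256 higher and 432 lower, became 89 and 111 with the methods' t-test and 1466 and 1986 without Jun f/f replicate 2, and the higher count was 158 without the dimmest 40% and 463 without Jun f/f replicate 1. With 1 value per gene, the median of its probe sets, 87 genes were higher and 123 lower, which are counts of genes and not of probe sets. The causes were not tested.

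The genotypes share replicate numbers in the labels, but deviations of same-numbered arrays correlated at 0.0281 over probe sets, so the numbers were not taken to pair the hearts. With replicate number as a block, 2 of the 29 probe sets passed as higher, both of *Hand2*, and 2 of the GATA4, NKX2-5 and TBX5 targets passed.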
